A study of Rattus norvegicus with 4 samples.

Results

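Cholesterol export, its control and lipid storage were described through 9 genes in NR8383, a line of alveolar macrophages grown out of the lung lavage of a normal rat. The genes are Nr1h3, Srebf1 and Srebf2, which encode transcription factors, Abca1, Abcg1, Apoe and Pltp, which act in cholesterol export and lipoprotein remodelling, and Soat1 and Plin2, which act in storage. They were chosen by name, with no measured value in the rule, though earlier results of these data were known. They were found on the array through the RefSeq accession of each probe. All 9 had a probe, and the 9 genes were covered by 10 of the array's 45598 probes, on which 16581 genes could be named. None of the 9 encodes an uptake receptor, so uptake was followed in a separate list. The samples were 4 cultures, described in the study design as biological replicates. Each had received pristine single-walled carbon nanotubes of the type NRCWE055 for 4 h, at a dose of 11 cm2/cm2, after 20 passages of the line. Titles assign all 4 samples to NRCWE055, although the source names give NRCWE055 for replicate 1 and NRCWE056, NRCWE057 and NRCWE058 for replicates 2, 3 and 4. The titles were followed. If the source names are right, each SD spans 4 materials and is not a spread between replicates. The design also names unexposed cells, which are not analysed here. The values therefore describe exposed cells only, and a response to nanotubes could not be measured or tested.

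Macrophages take up lipid with lipoproteins, dying cells and surfactant, and free cholesterol in excess is toxic to them. Liver X receptors sense oxidised cholesterol and switch on exporters of the ABC family, while sterol regulatory element binding proteins, held in the endoplasmic reticulum when sterol is plentiful, switch on synthesis and uptake when it falls. Cholesterol that is not exported is esterified and kept in lipid droplets, and in the lung these pathways serve the clearance of surfactant lipid by alveolar macrophages.

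Signals are the scanner software's processed intensities, in arbitrary units. A probe is called detected where its spots were flagged well above background. Levels are log2 values relative to the 75th percentile of each array, taken over probes detected on every array. They are given as mean ± SD over the arrays (n = 4), and the number of arrays limits their precision. A level depends on the probe as well as on the transcript, so the level of one gene is not set against that of another. The arrays lay on 1 slide, the 75th percentile signal ranged from 1756 to 2861, and levels correlated at 0.996 to 0.998 between arrays across detected probes, which are not independent replicates. A culture's signal does not tell fewer expressing cells from less RNA per cell. Of 10 macrophage markers, 9 had a probe and all 9 were detected on every array, whereas 0 of 6 lung epithelial and 0 of 5 hepatocyte markers were.

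All 9 genes were detected on every array, against 52.4% of all named genes. The signals of the 10 probes lay between 5.01 times the lowest detected signal of the same array, for Abca1 on replicate 1, and 4999 times, for Abcg1 on replicate 3. Abca1 and Apoe were read closest to the detection limit, at 5.01 to 8.995 and 5.03 to 7.09 times that signal. No spot on any array was saturated.

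**Figure D1:**
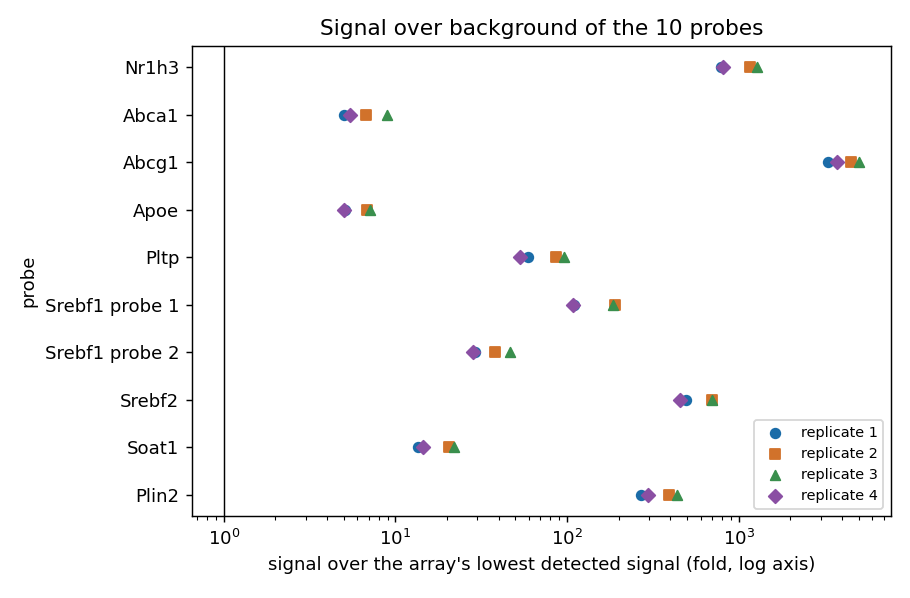
Signal of each of the 10 probes divided by the lowest detected signal of the same array (fold, log axis), 1 point per replicate. The vertical line marks a ratio of 1; the Abca1 and Apoe points lie closest to it, between 5.01 and 8.995, and the Abcg1 points lie between 3322 and 4999.

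Among the regulators, Nr1h3 encodes liver X receptor alpha, the sterol sensor that drives exporter genes in macrophages. Its signal was 12264 on replicate 1, 18109 on replicate 2, 20291 on replicate 3 and 12713 on replicate 4. The higher signals were on the arrays that were brighter throughout, and after scaling the Nr1h3 level was 2.79 ± 0.027 with the highest and lowest array 1.04-fold apart. Nr1h2, which encodes the related receptor liver X receptor beta, was at 1.01 ± 0.08. Rxra, which encodes a partner receptor of both, was at -4.12 ± 0.12.

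Srebf2 encodes the sterol regulatory element binding protein best known for cholesterol synthesis and uptake genes. Its signal was 7656 on replicate 1, 10916 on replicate 2, 11091 on replicate 3 and 7235 on replicate 4. The level was 2.02 ± 0.08, with replicates 1 and 2 at 2.12 and 2.05 and replicates 3 and 4 at 1.95 and 1.95. Without a spot printed more than once, Srebf2 has no error measured from repeated spots within an array, and these values lay 1.13-fold apart at most.

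Srebf1 encodes the family member best known for fatty acid synthesis genes and is itself a target of liver X receptors. It was the only member with more than 1 probe, and both probes carry the same RefSeq accession. The brighter probe gave signals of 1719, 2969, 2932 and 1723 on replicates 1 to 4, a level of 0.01 ± 0.12. The dimmer probe gave 456, 595, 743 and 445, a level of -2.03 ± 0.10. Replicate 2 was the highest array for the brighter probe, at 0.17, and the lowest array for the dimmer one, at -2.15. The gap between the probes was therefore 2.32 on replicate 2 and 1.91 to 1.98 on the other arrays, with a mean of 2.04. Gaps of this size were common, since 44.2% of the 1403 genes with exactly 2 detected probes had a larger one and the median was 1.77. Averaged over its probes, Srebf1 was at -1.01 ± 0.06, so the mean hides opposite deviations on replicate 2. The deviations were also opposite on replicate 1, at -0.045 for the brighter probe and 0.082 for the dimmer one. Without replicate 4 the SD of the mean over the probes was 0.014.

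Factors that hold, move and cut the SREBP proteins were mostly measurable. Of 6 such genes, 5 were detected on every array, against 52.4% of all named genes. Mbtps2, which encodes the second protease of the pathway and was named after its values were seen, was detected on none. Scap, which encodes the sterol-sensing escort of SREBP proteins, was at 0.67 ± 0.15. Insig1, which encodes the protein that retains Scap in the endoplasmic reticulum, was at 0.69 ± 0.10 over 2 probes that lay 1.66 apart. Fasn and Scd, lipogenic genes known as targets of both SREBP-1c and liver X receptors, were detected on no array. They were singled out after their values were seen, from a liver X receptor list with 14 of 18 genes detected on every array. Acaca and Lpcat3 of that list, also named after their values were seen, were detected on every array, at -4.87 ± 0.08 and 1.70 ± 0.07. The signals of Fasn and Scd were 4.26 to 5.19 and 4.14 to 5.17, below the lowest detected signals of 15.6 to 15.9. Each was read from 1 probe, so these readings bound the signal of that probe and not the amount of RNA. Under the looser detection rule used as an alternative, Fasn was detected on 2 arrays and Scd on 1.

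Letters of the kind that liver X receptors, SREBP proteins and E-box factors are known to bind were found near the start of 3 genes and are shown. RefSeq promoter windows on GRCr8, from 250 bases before to 50 bases after a transcript start, were held for 8 of the 9 genes, in 12 windows. Sites of 30 bases on the gene's strand follow, with the matching letters in capitals.
Abca1, chr5:72596521-72596550, minus strand: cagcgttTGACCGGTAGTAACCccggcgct
Abca1, chr5:72596605-72596634, minus strand: gggccatagctcCACGTGctttctgctgag
Srebf2, chr7:115543140-115543169, plus strand: atgacgcgccATCACCCCAtgagccgcttc
Plin2, chr5:106229068-106229097, minus strand: ccactgggctatCACGTGgcgcggaggcat

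The first Abca1 site holds, on the opposite strand, GGTTA and GGTCA with 5 bases between them, a direct repeat of the kind liver X receptors bind with their partner, and the match begins 70 bases before the annotated transcript start of its window. These letters were in 0.0538% of all 33469 windows. The second Abca1 site and the Plin2 site hold CACGTG, an E-box, 149 and 67 bases before the start, which 6.42% of windows held. The Srebf2 site holds ATCACCCCA, as in sterol regulatory elements, 157 bases before the start, and 0.245% of windows held it. GGGCGG, the letters of a GC box, was in 8 of the 12 windows, those of 6 genes, and in 33.1% of all windows. Matches of different motifs did not overlap one another in these genes. Both strands were searched, and the motifs were picked after the windows had been read, so the matches are a description of the letters and no binding was measured. The second Abca1 site lies upstream of the gene's annotated span. The other sites lie inside the annotated span of their gene, and exons were not used here.

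Among the export genes, Abca1 encodes the transporter that loads cholesterol and phospholipid onto lipid-poor apolipoproteins. Its signal was 78.2 on replicate 1, 106 on replicate 2, 143 on replicate 3 and 85.8 on replicate 4. The raw median intensity of the spot was 123 to 201 over a local background of 33.0 to 41.0. The level was -4.47 ± 0.13, lowest on replicate 2 at -4.64 and highest on replicate 3 at -4.32, a 1.25-fold range, and the SD was 0.087 without replicate 2. From raw median signals with normexp correction, replicate 3 lay 0.027 below the Abca1 mean, where processed signals put it 0.15 above. The order of the arrays for this dim probe therefore depends on how the signal was processed. The spot signal, the background correction and an added offset changed together, so which of them moved replicate 3 was not tested.

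Abcg1 encodes a transporter that exports cholesterol to mature high density lipoprotein and is needed for lipid balance in alveolar macrophages. Its signal was 51879 on replicate 1, 70381 on replicate 2, 79595 on replicate 3 and 59176 on replicate 4. The level was 4.85 ± 0.10, with replicate 4 highest at 4.98 and replicate 2 lowest at 4.74. Quantile normalization turned the deviation of replicate 1 from 0.034 above the mean to 0.095 below and that of replicate 3 from 0.053 below to 0.056 above.

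Apoe encodes apolipoprotein E, which macrophages secrete and which accepts exported cholesterol. It was the only member printed several times, with 10 spots per array, all well above background. On replicate 1 the spots ranged from 66.8 to 95.8 with a median of 78.3. On replicate 2 they ranged from 95.8 to 119 with a median of 106. On replicate 3 the median was 116, with spots from 99.3 to 120. On replicate 4 the median was 83.6 over 9 spots from 67.4 to 90.6, and the spot left out as an outlier read 123.

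After scaling, the Apoe level was -4.47, -4.63, -4.66 and -4.56 on replicates 1 to 4, with SDs between spots of 0.09 to 0.14. The spots of all 4 arrays overlapped. The largest difference, between replicates 1 and 3, was 0.19, and the arrays differed in limma's moderated F test over replicate spots (adjusted p = 0.00947). With processed signals and this scaling, such a difference was usual. Of the 1038 probes printed 10 times, 65.7% differed between arrays (42.8% of all 1742 probes printed several times), with a median largest difference of 0.164. The spots repeat a measurement of 1 labelled RNA, so the test compares arrays and not cultures. With quantile normalization the largest Apoe difference was 0.079 (limma adjusted p = 0.479), without replicate 1 it was 0.11 (limma adjusted p = 0.182) and without replicate 3 it was 0.16 (limma adjusted p = 0.0522). With normexp correction it was 0.35 (limma adjusted p = 2.00e-06), and there 222 probes printed several times differed, in place of 746, so the shares above do not apply.

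**Figure D2:**
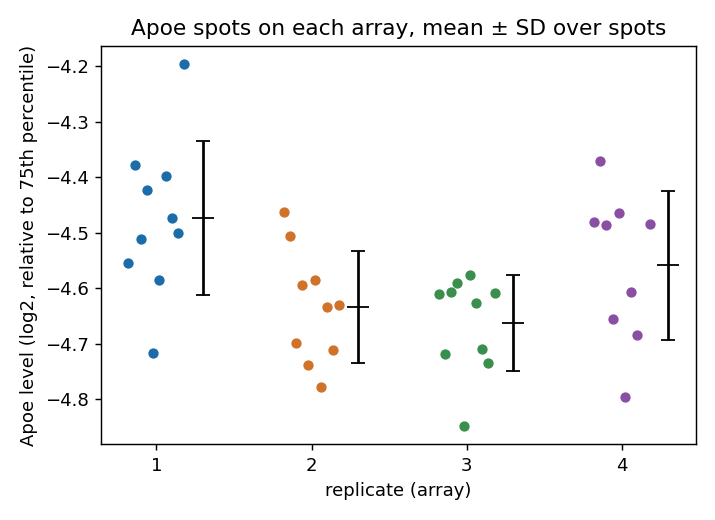
Apoe level (log2, relative to the array's 75th percentile) in each usable spot of the 4 arrays, with the mean and SD over spots as black bars. The means run from -4.66 on replicate 3 to -4.47 on replicate 1 and the spots of the arrays overlap.

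Pltp encodes phospholipid transfer protein, which moves phospholipid between lipoproteins and is a target of liver X receptors. Its signal was 930 on replicate 1, 1339 on replicate 2, 1532 on replicate 3 and 835 on replicate 4. The level was -0.99 ± 0.12. Replicate 4 was the lowest, at -1.16, and replicates 1 to 3 lay between -0.97 and -0.90, so the SD was 0.035 without replicate 4.

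The wider liver X receptor list, which includes lipoprotein and oxysterol genes, had 14 of 18 members detected on every array. The share over all named genes was 52.4%. Mylip, which encodes a ubiquitin ligase and is a target of liver X receptors, was at -4.74 ± 0.14. Ch25h and Cyp27a1, which encode enzymes that make oxysterols, were at 1.37 ± 0.09 and -1.97 ± 0.04. Besides Fasn and Scd, the members not above background on every array were Apoc1, detected on none, and Lcat, detected on 3, both named after their values were seen. Under the looser detection rule Apoc1 and Lcat were each detected on 4 arrays.

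Of the uptake genes, 5 of 9 with a probe (55.6%) were detected on every array, close to the 52.4% of all named genes. Scarb1, which encodes a receptor for high density lipoprotein, was at -0.26 ± 0.05, and its probes lay 1.62 apart. Cd36, which encodes a receptor for oxidised lipoprotein and fatty acids, was at -0.96 ± 0.09, with probes 5.08 apart. Vldlr and Msr1, also named after their values were seen, were among those detected on no array.

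Lysosomal and membrane sterol transport was covered by 11 genes, of which 10 were detected on every array, against 52.4% of all named genes. Npc1 and Npc2, which encode the proteins that carry cholesterol out of the lysosome, were at 0.95 ± 0.06 and 2.46 ± 0.07. Lipa, which encodes lysosomal acid lipase, was at 1.70 ± 0.07.

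Of the storage genes, Soat1 encodes the acyltransferase that esterifies cholesterol in macrophages. Its signal was 212 on replicate 1, 321 on replicate 2, 348 on replicate 3 and 228 on replicate 4. These signals followed the brightness of the arrays so closely that the level was -3.05, -3.04, -3.04 and -3.04 on replicates 1 to 4, with an SD of 0.0044. Among 8685 detected genes, 2 had a smaller SD. Soat1 has 1 spot per array, to which the scanner software attached an error of 10.1%. Its SD was 0.015 to 0.026 with the other scalings and 0.087 with normexp correction. The small spread therefore depends on the scaling and on how the signal was processed.

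Plin2 encodes perilipin 2, the coat protein of lipid droplets in macrophages. Its signal was 4184 on replicate 1, 6147 on replicate 2, 6960 on replicate 3 and 4708 on replicate 4. The level was 1.27 ± 0.045, highest on replicate 4 at 1.33 and lowest on replicate 2 at 1.22, a 1.08-fold range.

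Of 19 other lipid droplet storage and release genes with a probe, 16 were detected on every array, against 52.4% of all named genes. Dgat1, which encodes an enzyme of triglyceride synthesis, was at 0.71 ± 0.08. Pnpla2, which encodes adipose triglyceride lipase, was at 0.01 ± 0.06, and Nceh1, which encodes a cholesteryl ester hydrolase, was at -0.80 ± 0.08. No probe was matched to Plin3. Of 4 adipocyte markers with a probe, the defining genes Adipoq and Lep were detected on no array, while Cidec and Retn were on all. The summed level of Cidec and Retn was 64.7 to 99.2 times the 75th percentile. Retn was at 6.28 ± 0.28 and Cidec at -0.09 ± 0.06, so the sum is mostly the signal of the Retn probe. The part of Cidec and Retn in the storage values was not tested.

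**Figure D3:**
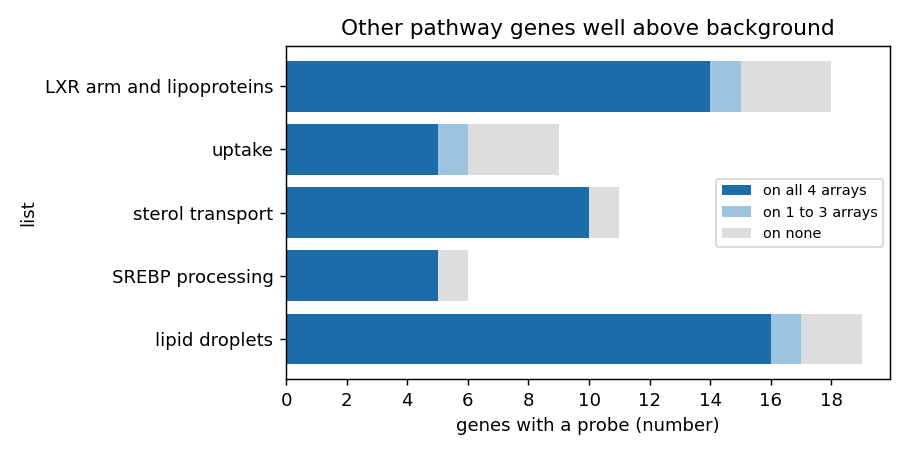
Number of other pathway genes with a probe in each of 5 lists, split by whether the gene was detected on all 4 arrays, on 1 to 3 or on none. The dark bars reach 5 of 9 for uptake and 10 of 11 for sterol transport, against 52.4% of all named genes.

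Over the 5 lists together, 50 of 63 measured genes (79.4%) were detected on every array, 3 on some and 10 on none, against the 52.4% of all named genes. The lists were compared with that share by count only. They were chosen with earlier results of these data known, so their higher share is only a description.

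Between cultures the 9 genes were close. Their SD ranged from 0.0044 for Soat1 to 0.13 for Abca1, with a median of 0.084, and the median over the 8685 detected genes was 0.093. Abca1, Abcg1 and Pltp were the 3 with an SD above that of the median gene. None of the 9 genes spanned over 2-fold, as did 1.11% of all detected genes, and the widest span was 1.25-fold. Without replicate 4 the median SD of the 9 genes was 0.035 and that of all detected genes 0.080. Without replicate 1 the share of genes spanning over 2-fold was 0.497%, with 0 of the 9 genes among them. At either share a count of 0 in 9 says nothing particular about these genes.

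Spread depends on level, so each gene was also set beside the 200 detected genes nearest to it in level. The SD of Abca1 was below the median of its neighbours, 0.14, as was that of Apoe, whose neighbours had a median of 0.14. Abcg1, Pltp and Srebf2 lay above the medians of their neighbours, which were 0.077, 0.082 and 0.064. Pltp had the highest place among the 9, above 84.0% of its neighbours.

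**Figure D4:**
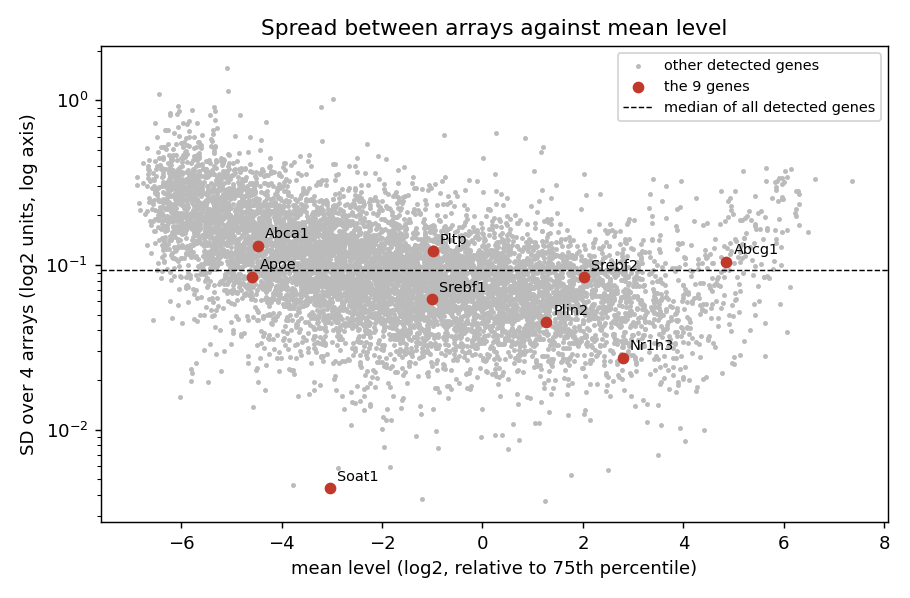
SD over the 4 arrays (log2 units, log axis) against mean level (log2, relative to the 75th percentile) for all detected genes in grey and the 9 genes in red; the dashed line is the median SD of all detected genes, 0.093. Abca1, Pltp and Abcg1 lie above the line, and Soat1 lies far below it at 0.0044.

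The deviations were also set beside the error that the scanner software attaches to 1 spot, which averaged 10.0% to 10.8% over the arrays for the 9 probes read from 1 spot. For Abcg1, Nr1h3, Srebf2 and Plin2 it was 10.0% on every array, though their signals differed widely, so it acts almost as a fixed limit. This error is technical, was not measured from repeated spots and leaves out any spread between cultures. Of the 36 array values of these probes, 4 deviated from their probe's mean by more than the error of 1 spot. They were Abca1 on replicates 2 and 3, Pltp on replicate 4 and the brighter Srebf1 probe on replicate 2. The share over all probes read from 1 spot was not counted, so these 4 values are a description only.

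**Figure D5:**
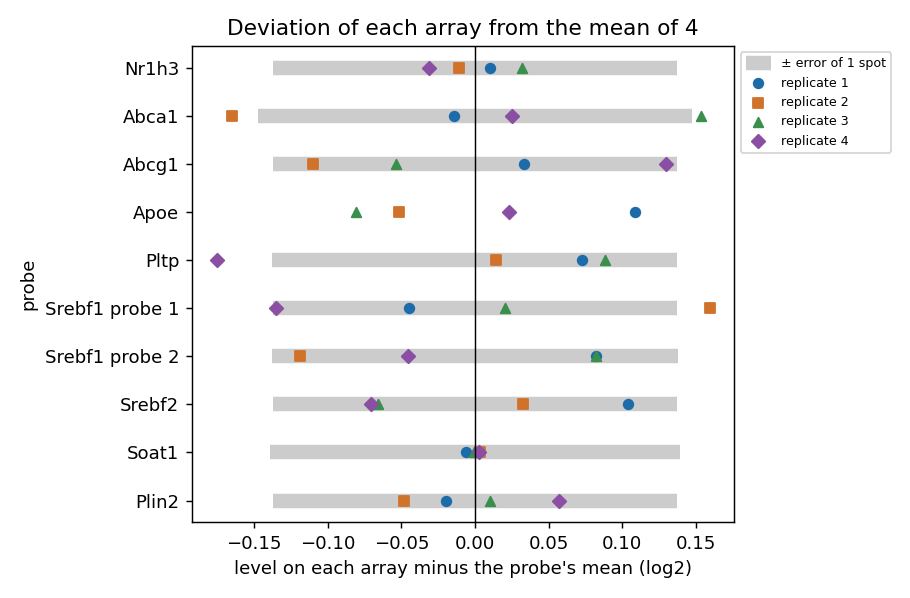
Level of each probe on each array minus the probe's mean over the 4 arrays (log2). A grey bar gives plus or minus the error that the scanner software attaches to 1 spot, left out for Apoe, whose values are means of 9 or 10 spots. The points outside the bars are Abca1 on replicates 2 and 3, Pltp on replicate 4 and the brighter Srebf1 probe (probe 1) on replicate 2.

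Replicate 1 was above the gene's own mean for 6 of 9 genes, replicate 2 for 4, and replicates 3 and 4 for 5 each, with median deviations of -0.011 to 0.019. Of all detected genes, 47.6%, 45.7%, 53.0% and 53.0% were above their own mean on replicates 1 to 4. Nr1h3, Abca1, Pltp and Srebf1 were highest on replicate 3, Apoe and Srebf2 on replicate 1, Abcg1 and Plin2 on replicate 4, and Soat1 on replicate 2. With 4 arrays, no correlation between genes was computed.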

How the data were processed

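Total RNA was labelled with Cy3 and hybridised to 1-colour Agilent arrays, 1 array per culture, in 1 group of 4. The deposited processed signal is an intensity. Per the file headers, it was made with version 11.0.1.1 of Agilent Feature Extraction, which subtracted background and removed trends across the array, without normalization between arrays. The deposited signal error, raw median spot and background intensities, and 0 or 1 flags were also used. Mean spot signals were not used here.

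Control spots and 427 to 714 outlier spots per array were left out. The log2 signal was averaged over a probe's spots, and the 75th percentile of the array, over the 17807 probes detected on every array, was subtracted. A probe was detected when over 0.5 of its usable spots were flagged well above background, which held for 40.8% to 43.7% of probes per array, so the percentile was taken over detected probes. Of the 308 negative control spots, 1 to 3 per array were well above background. Accessions were matched to RefSeq symbols of GRCr8, which named 46.3% of probes. A gene's level is the mean of its detected probes. The test of probes printed several times used limma (version 3.58.1, R 4.3.3) with the array as factor and Benjamini-Hochberg adjustment at 0.05, a test checked on simulated data.

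The members, gene lists and alternatives were chosen with earlier results of these data known. The genes named are the 9 members and 17 pathway genes listed whatever their values, and others are said to be chosen after their values were seen. Some genes are not reported here. Macrophage, lung epithelium, hepatocyte and adipocyte markers are given in the report, and of 5 fibroblast and smooth muscle markers 1 was detected on all arrays. The alternatives were other scalings, normexp with an offset of 50 on median signals, other detection rules, the brightest probe, keeping outlier spots, and leaving out each replicate. Array coordinates were not used, and promoter coordinates are those of GRCr8.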

Additional observations from a re-analysis of the deposited data

Results flagged for a closer look

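In 27 series of 4 array values, for the 9 genes, the pair of Srebf1 probes and 16 pathway genes, the gap of the most distant array was divided by the whole range and compared with Dixon's 95% limit. The limit was passed in 2, where chance gives about 1.35. Insig1 was at 0.83 on replicate 4 against 0.62 to 0.66 on the others, and Ch25h was at 1.50 on replicate 4 against 1.31 to 1.34. None of the 9 genes and neither Srebf1 probe passed.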

How the results depend on the processing

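All 9 genes stayed above background on all arrays under each alternative that can give the count; without a filter on dim probes no such count exists. The pathway count was 50 to 54. Scaling to the 75th percentile over all probes raised levels of all detected genes by a median of 3.60, median centring by 2.43 and normexp correction by 0.19, and the looser detection rule, through its percentile, moved the Apoe level to -3.80, so levels are relative to the scaling. The median SD of the 9 genes was 0.070 to 0.088 under the alternatives that keep all arrays and 0.035 to 0.087 when 1 array was left out, lowest without replicate 4. Probes printed several times that differed between arrays numbered 222 with normexp correction in place of 746, 849 with quantile normalization, and 522 to 694 when 1 array was left out; the cause was not tested. The largest Apoe difference was 0.079 with quantile normalization and 0.11 to 0.20 when 1 array was left out, with limma adjusted p-values of 0.479 and of 0.00387 to 0.182; the cause was not tested. Besides the SDs given in the report, those of Nr1h3 (0.063) and Apoe (0.17) rose over 1.5 times with normexp correction, and those of Nr1h3 (0.017) and Plin2 (0.024) fell without replicate 4, as did that of Apoe (0.056) without replicate 1; that of Soat1 was 0.00997 without replicate 1 and 0.0076 without replicate 4. No paired analysis was possible because there is 1 group. Signal over background limits Abca1 and Apoe most.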

Other observations

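Among the other pathway genes detected on all arrays, 0 of 50 spanned over 2-fold between cultures, against 1.11% of all detected genes, a share at which a count of 0 in 50 says nothing particular about them. The widest spans, picked after their values were seen, were those of Apoc4, which encodes a small apolipoprotein, and Abcg4, which encodes a transporter related to Abcg1. Apoc4 was at -1.49, -1.92, -2.08 and -1.68 on replicates 1 to 4, a 1.51-fold range. Abcg4 was at -3.67, -4.01, -3.46 and -3.81, a 1.47-fold range. Also named after their values were seen were 3 droplet genes. G0s2, whose product inhibits adipose triglyceride lipase, was at 5.67 ± 0.09, and Cidea and Cidec, whose products enlarge lipid droplets, were at -0.70 ± 0.04 and -0.09 ± 0.06.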
